A study of Homo sapiens with 8 samples.

Results

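CpG methylation at late passages was compared with that at middle passages in HUES64, a human embryonic stem cell line in wide use. The labels give the genotype as a knockout of DNMT3A and DNMT3B, which every library used here carries. The comparison takes 5 of the 8 libraries of the series, chosen by the passage label alone: passages 11, 13 and 17 form the middle group, and passages 27 and 28 form the late group. Each passage has 1 library, made by reduced representation bisulfite sequencing (RRBS), which reads short restriction fragments rich in CpGs after unmethylated cytosines have been converted. Earlier passages were not used, and unedited cells were not analysed here. Whether the 5 libraries were drawn in turn from a single clone or culture is not stated in the labels, so a p-value measures the spread between these libraries, which may be technical. Passage number, culture time and library preparation cannot be told apart in this design, and the SD of the middle group holds any trend between passages 11 and 17.

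DNMT3A and DNMT3B are the enzymes that methylate CpGs with no methylated partner on the other strand. DNMT1 copies methylation from the old strand to the new one after each round of DNA replication. A CpG that DNMT1 misses can regain full methylation only by a new deposition. In human pluripotent cells most CpGs are methylated, apart from dense CpG islands at gene starts, which are mostly free of it.

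The 5 libraries held between 19898423 and 28917356 reads over their listed CpGs, with a median coverage of 6 to 8 reads per CpG. A read is counted here at each listed CpG it covers, so reads summed over several CpGs are not all separate reads. Autosomal CpGs with at least 5 reads in each of the 5 libraries numbered 1084935, and their reads were added up in tiles of 1000 bases. The 129138 tiles that held 3 or more such CpGs were kept, with a median of 5 kept CpGs. A tile's level is the methylated share of its reads in 1 library, and the average of the libraries of a group is its group mean. Any 2 of the libraries differed beyond read counting (the lowest mean chi-square per CpG, between passages 27 and 28, was 1.44), so none was treated as a repeat of another.

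Where the change reached gene starts, the sequences below show which CpGs carried it. They are the 250 bases before the start of the 4 genes with the largest falls, and of the gene with the largest gain. The choice was among promoters with at least 8 kept CpGs whose start tile was called in the same direction. Both late libraries also had to lie outside the range of the middle ones. Promoters on chromosomes 8 and 18 were left out, so this is not a ranking over all autosomes. They come from RefSeq (assembly GRCh38.p14), read 5′ to 3′ on the gene's own strand, and capitals mark the CpGs with values in all 5 libraries.
BHMT2: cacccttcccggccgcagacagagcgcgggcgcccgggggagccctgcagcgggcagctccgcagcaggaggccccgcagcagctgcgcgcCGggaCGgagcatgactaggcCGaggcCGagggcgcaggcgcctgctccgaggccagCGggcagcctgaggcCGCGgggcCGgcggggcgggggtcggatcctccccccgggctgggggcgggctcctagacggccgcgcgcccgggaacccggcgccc
TRPM2: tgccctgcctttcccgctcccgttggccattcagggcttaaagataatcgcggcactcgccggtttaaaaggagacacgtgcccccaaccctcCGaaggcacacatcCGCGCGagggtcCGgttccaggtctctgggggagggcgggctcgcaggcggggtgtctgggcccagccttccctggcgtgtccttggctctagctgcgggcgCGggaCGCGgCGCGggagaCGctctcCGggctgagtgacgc
REPIN1-AS1: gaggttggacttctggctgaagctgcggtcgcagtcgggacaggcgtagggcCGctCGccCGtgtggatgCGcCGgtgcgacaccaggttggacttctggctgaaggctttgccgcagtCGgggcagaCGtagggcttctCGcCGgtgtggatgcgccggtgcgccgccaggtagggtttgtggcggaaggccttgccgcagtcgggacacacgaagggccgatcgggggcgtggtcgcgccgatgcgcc
FKBP11: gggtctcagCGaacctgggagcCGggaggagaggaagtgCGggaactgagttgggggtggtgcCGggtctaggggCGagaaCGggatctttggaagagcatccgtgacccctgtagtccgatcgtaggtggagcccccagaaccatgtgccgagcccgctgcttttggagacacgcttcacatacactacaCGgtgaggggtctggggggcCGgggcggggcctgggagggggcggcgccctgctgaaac
RNPS1: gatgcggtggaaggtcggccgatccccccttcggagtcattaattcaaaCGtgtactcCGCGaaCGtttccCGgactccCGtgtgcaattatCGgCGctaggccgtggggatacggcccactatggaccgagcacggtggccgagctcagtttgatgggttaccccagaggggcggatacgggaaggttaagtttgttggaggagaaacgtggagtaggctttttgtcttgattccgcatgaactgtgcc

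BHMT2 encodes an enzyme that methylates homocysteine, and its 250 bases lie on the plus strand at chr5:78365340-78365589 in the hg19 coordinates of the files. The mean of its 8 kept CpGs was 94.4%, 95.9% and 81.4% at passages 11, 13 and 17, and 10.8% and 10.7% at passages 27 and 28. The divergently oriented DMGDH, an enzyme of choline breakdown, starts in the same tile, so the promoter cannot be assigned to BHMT2 alone. TRPM2 encodes a calcium-permeable cation channel, and the printed stretch (chr21:45769774-45770023, plus strand) lies before the first of its 2 placed starts. Its 12 kept CpGs averaged 63.0%, 80.8% and 73.0% at the middle passages and 6.40% and 2.01% at the late ones. REPIN1-AS1, an antisense transcript of the REPIN1 locus, has 2 placed starts, and the stretch before the one further from the starts of REPIN1 (chr7:150069671-150069920, minus strand) went from 57.3%, 70.7% and 59.3% to 0 in both late libraries. No methylated read was seen there among the 319 late reads over its 9 kept CpGs. If each of these counts were a separate read, they would allow a level of up to 0.94%. Whether this stretch also lies inside REPIN1, to which the transcript is antisense, was not checked. FKBP11 encodes a peptidyl-prolyl isomerase of the endoplasmic reticulum, and its stretch (chr12:49318772-49319021, minus strand) had levels of 89.6%, 54.3% and 62.4%, then 27.7% and 18.6%. In each of these 4 promoters every kept CpG was lower in the late mean, by between 33.3 and 95 points. Of the 37 kept CpGs only 1, in FKBP11, had late values that overlapped its middle values. The promoters were chosen with both late means below the middle ones, so this separation is partly built in.

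RNPS1, a splicing factor that binds RNA, went the other way. The printed stretch lies before 1 of its 3 placed starts (chr16:2317339-2317588, minus strand), and its 8 kept CpGs averaged 24.9%, 20.2% and 0% at the middle passages and 44.0% and 44.5% at the late ones. All 8 CpGs were higher, by 21.4 to 34.8 points. The start tiles of the 5 promoters had adjusted p-values of 4.86e-08, 7.33e-07, 2.14e-09, 0.00016 and 0.00434 in the order printed, in the quasi-binomial fit over all tiles that is described next. Each p-value belongs to the whole tile and not to the printed stretch. The TRPM2 tile (chr21:45770001-45771000, 5 kept CpGs) leaves out most of the printed CpGs of that gene. The call at RNPS1, whose tile changed by 10.9 points, did not hold with 10 reads per CpG (4.58 points, adjusted p = 0.249). It was also lost without passage 28 (8.59 points, adjusted p = 0.106), and without passage 13 or 17 its change was under 10 points (9.55 and 9.24). Among the alternatives run, the call was lost in 7 at RNPS1, in 2 at FKBP11 and in 1 at REPIN1-AS1. Neighbouring CpGs of a restriction fragment share reads, so the CpGs of a promoter are not separate measurements, and each rests on 5 to 36 reads per library.

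The mean level of the 1084935 CpGs was 43.3%, 43.0% and 41.6% at passages 11, 13 and 17, and 37.3% and 36.4% at passages 27 and 28. Both late libraries lay below all middle ones, and the group means differed by -5.83 points (42.7% ± 0.898, SD, n = 3, against 36.8%, n = 2). An exact permutation test over the 10 ways to split the 5 libraries gave a two-sided p of 0.1, the smallest this design allows, so no single library-wide value can pass 0.05. The step per passage was -0.277 points between passages 11 and 17 and -0.436 points between passages 17 and 27. CpGs at 80% or more made up 32.9% ± 1.04 (SD, n = 3) of all kept CpGs in the middle group and 26.0% in the late group. CpGs at 20% or less went from 46.8% ± 0.799 (SD, n = 3) to 52.2%, while those in between went from 20.3% to 21.8%. Fully methylated CpGs, with every read methylated, went from 17.0% ± 1.10 (SD, n = 3) to 11.2%. The median coverage of kept CpGs was 10, 11 and 11 reads at the middle passages and 12 and 13 at the late ones. More reads make a fully methylated CpG less likely, and the part of coverage in this change was not tested. On chromosome X, kept apart, the mean over 20897 CpGs was 59.96% ± 0.904 (SD, n = 3) in the middle group and 54.0% in the late group.

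**Figure D1:**
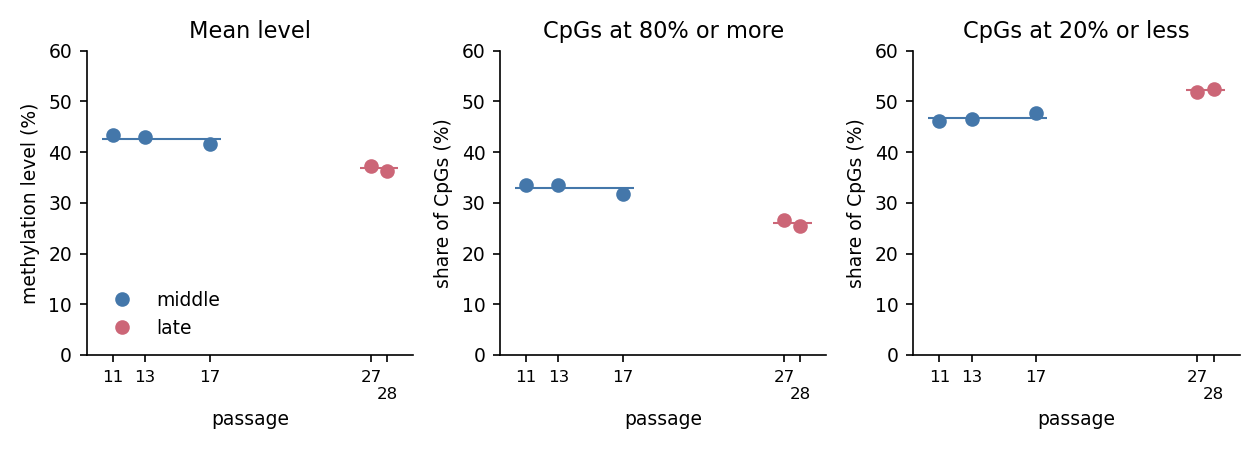
Mean methylation level, share of CpGs at 80% or more and share at 20% or less (all in percent) against passage number, for 1084935 autosomal CpGs; each point is 1 library and lines are group means. The late libraries lie below the middle ones in the first 2 panels (36.8% against 42.7%, and 26.0% against 32.9%) and above them in the third (52.2% against 46.8%).

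Each tile was then tested by itself. A tile needed at least 10 methylated and 10 unmethylated reads over the 5 libraries, which 93923 tiles had, and a call meant an adjusted p under 0.05 and group means at least 10 points apart. Of the tested tiles, 19677 (21.0%) were called lower at late passages and 519 (0.553%) higher. Counts depended on the test: limma on logit levels called 9023 lower and 196 higher, and limma on plain means of CpG levels called 3629 and 71. Both late libraries lay below all 3 middle ones in 37999 tested tiles (40.5%) and above them in 3998 (4.26%). The median fall was -27.8 points, with an interquartile range of -37.2 to -20.4. A fall of 50 points or more was seen in 1647 tiles and of 70 points or more in 174. The threshold itself allows about 1010 false calls among the 20196 of both directions, more than the 519 gains, so the call alone does not set a single gain apart from false ones. Without passage 28, 11705 tiles were called lower and 233 higher, and gains numbered 258 without passage 27 and 313 without passage 13. At an adjusted p under 0.001 there were 7679 falls and 64 gains. Of the 35215 tiles not tested, 31871 had a middle mean under 10%.

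Averaged over the tiles called lower, levels were 61.6%, 62.0% and 56.9% at the middle passages and 31.5% and 28.7% at the late ones. In 51.4% of them passage 17 was the lowest of the 3 middle libraries, and in 59.3% passage 28 was below passage 27. Many of these tiles were left with little methylation: 8633 (43.9%) ended under 20%, and 6011 (30.5%) under 10%. The tiles called higher were on average at 57.4%, 51.5% and 49.6% and then at 76.7% and 76.0%, and 60.1% of them ended at 80% or more.

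The largest single falls took tiles from near full methylation to almost none. The first by size lies at chr15:27138001-27139000, where levels were 100%, 91.7% and 96.9% at the middle passages and 2.27% and 0% at the late ones, with 24 to 44 reads per library over 4 CpGs (adjusted p = 5.01e-07). The nearest placed start, of GABRG3, is 77.3 kb away. The one with most reads among the 10 largest lies at chr5:172097001-172098000, 28.7 kb from the start of NEURL1B, an E3 ubiquitin ligase, with 94.7%, 96.9% and 87.2% over 9 CpGs against 3.62% and 1.12% (adjusted p = 9.49e-10). Its 400 late reads gave a level of 2.50%, with a 95% Wilson interval of 1.36% to 4.54%. At chr7:539001-540000, 18.0 kb from the start of PDGFA, a growth factor for mesenchymal cells, levels went from 93.3%, 83.3% and 95.8% to 2.22% and 0%. Of the other large falls, 3 had no methylated late read, among 136 (chr10:679001-680000), 193 (chr3:127057001-127058000) and 77 reads (chr21:43167001-43168000), which allow levels of up to 2.21%, 1.55% and 3.90%. The remaining 4 are on chromosomes 1, 6, 8 and 9, and the change over all 10 was between -95.04 and -86.2 points. These intervals and limits cover read counting only. They are too narrow even for that, since a read is counted at each CpG it covers.

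The change depended on the level a tile had at the middle passages. Among 36850 tiles under 10%, the means were 1.01% ± 0.187 (SD, n = 3) and 0.606%. Both late libraries lay below all 3 middle ones there too, but the difference of -0.408 points was not the largest of the 10 splits (exact permutation p = 0.2). The change was -7.49 points in tiles at 10 to 20%, -13.8 at 20 to 40% and -15.5 at 40 to 60%. It was -9.17 points at 60 to 80%, -8.48 at 80 to 90% and -6.37 at 90 to 100%. With 10 reads per CpG, which keeps fewer tiles, the changes were -15.3 points at 20 to 40%, -22.3 at 40 to 60%, -18.4 at 60 to 80% and -12.8 at 80 to 90%, so the order of the classes depends on that minimum. In each of the 6 classes from 10% upward both late libraries lay below all 3 middle ones (exact permutation p = 0.1 each, the smallest possible). The share of tested tiles called lower was highest at 20 to 40%, with 46.0%, and was 36.4% at 10 to 20% and 37.9% at 40 to 60%. It was 17.6%, 14.3% and 15.8% in the 3 classes above. As a share of the middle level, late tiles kept 54.3% at 20 to 40% and 93.2% at 90 to 100%.

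**Figure D2:**
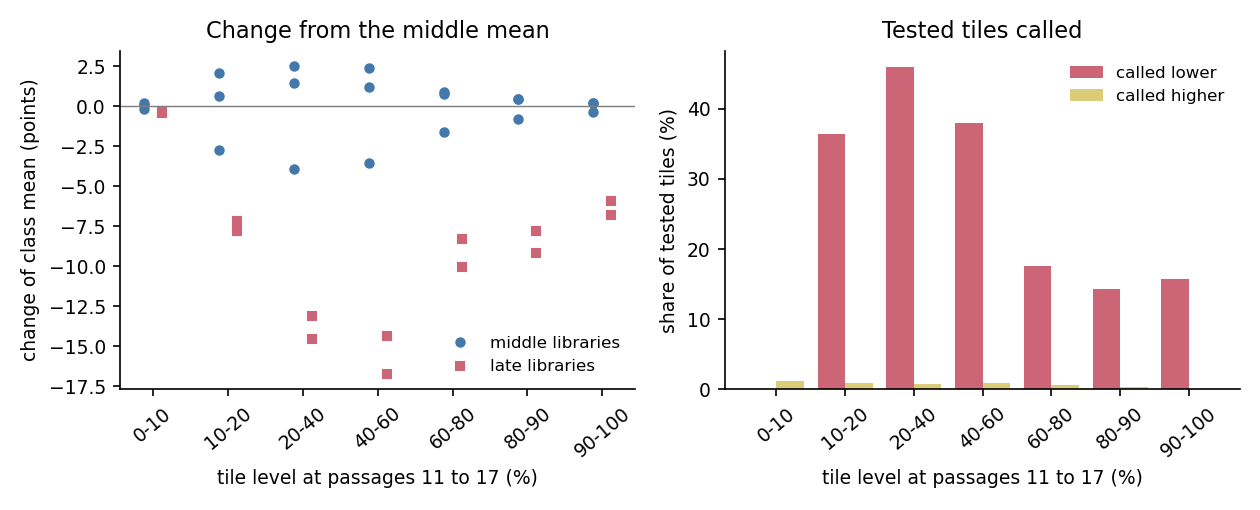
Left, change of the class mean from the mean of the 3 middle libraries (percentage points) for each library, against tile level at passages 11 to 17; right, share of tested tiles called lower or higher (percent) in the same classes. The late libraries are furthest below the middle ones in tiles at 40 to 60% (-15.5 points), and the share called lower peaks at 46.0% in tiles at 20 to 40%.

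Because the classes use the middle values from which the change is counted, they were also set from passage 11 alone, with the change taken from passages 13 and 17. The changes were then -6.95, -12.7, -14.8, -9.91, -7.33 and -5.27 points from the class of 10 to 20% upward, the same order with smaller values at the top. Of the 40691 tiles at 80% or more in the middle mean, 25412 (62.5%) were still there in the late mean, 15124 lay between 20% and 80% and 155 were under 20%. Of the 41041 tiles under 20%, only 311 reached 20% and 2 reached 80%. Tiles at 20 to 40% most often ended under 10%, as 39.4% of them did.

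A small set of highly methylated tiles showed no loss at all. Among 11181 tiles at 80% or more in each middle library, with at least 5 kept CpGs, 36 were at 100% in both late libraries. They were picked for these values, so this is a description. Taken by coordinate, the first is chr1:5256001-5257000, with 90.9%, 84.6% and 83.8% and then 100% in both late libraries over 161 late reads. It rose by 13.6 points (adjusted p = 0.00135), so it met the rule for a tile called higher. In the next 4, on chromosomes 1, 10 and 11, middle levels were 91.7% to 100%.

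CpG density was taken as the number of CpG positions that any of the 5 libraries listed in a tile. Over all tiles the change was -7.79 points at 3 to 9 listed CpGs, -7.86 at 10 to 19, -4.66 at 20 to 34 and -1.35 at 35 or more. Dense tiles were mostly unmethylated already: the class of 35 or more had a middle mean of 12.6%, against 62.0% in the class of 3 to 9. Within one level class the order changed with the level. In tiles at 60 to 80% the change grew with density, from -7.77 to -12.2, -20.5 and -23.2 points, and the share called lower from 13.2% to 27.9%, 50.8% and 52.2%. Tiles at 40 to 60% had changes of -13.0, -20.5, -24.4 and -21.2 points in the same order. In tiles at 90 to 100% the order was the opposite, with -7.07, -6.14, -3.91 and -2.93 points and shares of 18.8%, 13.3%, 9.61% and 5.48%.

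The difference between the densities was itself compared over libraries. At 40 to 80%, tiles of 20 to 34 listed CpGs changed by -13.1 points more than tiles of 3 to 9. Their gap was -4.00, -3.25 and -5.62 points at the middle passages and -16.7 and -18.0 points at the late ones (exact permutation p = 0.1). With 10 reads per CpG the difference was -8.42 points. At 80% or more, tiles of 35 or more listed CpGs changed by 3.82 points less than tiles of 3 to 9 (exact permutation p = 0.1), which shrank to 0.718 points when each CpG needed 10 reads. Dense tiles carry more reads, with a median of 1093 over the 5 libraries at 60 to 80% and 35 or more listed CpGs against 188 at 3 to 9. More reads make a call easier: the share called lower was 7.02% in tested tiles with 75 to 180 reads and 35.4% in those with 392 or more, where the mean changes were -6.40 and -11.8 points.

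**Figure D3:**
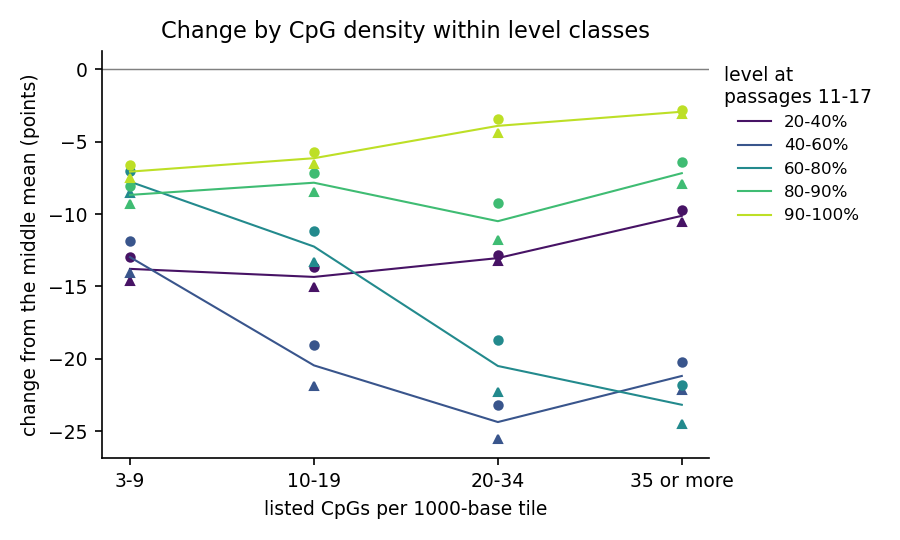
Change from the mean of the middle libraries (percentage points) against the number of listed CpGs per tile, for 5 classes of tile level at passages 11 to 17; lines are late means, circles passage 27 and triangles passage 28. The line for 60 to 80% goes down with density, to -23.2 points, and that for 40 to 60% goes down to -24.4 points at 20 to 34 listed CpGs and is at -21.2 points at 35 or more, while the line for 90 to 100% goes up, from -7.07 to -2.93 points.

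Losses were larger near chromosome ends, taken as the outermost listed CpGs on either side. For chromosomes whose short arm has few listed CpGs, that end is not a telomere. The change was -10.8 points in tiles under 1 Mb from an end, -11.2 at 1 to 5 Mb, -6.72 at 5 to 20 Mb and -4.80 beyond 20 Mb. Middle levels were alike in the 4 classes, between 48.9% and 52.0%. The share of tested tiles called lower was 35.8%, 37.1%, 19.9% and 12.5% in the same order. Tiles within 5 Mb of an end were 26.5% of the tested tiles, 46.4% of the tiles called lower and 38.0% of those called higher. On all 22 autosomes the change was larger within 5 Mb of an end than in the rest of the chromosome.

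The difference held at a given level and density. Among tiles at 80% or more, the changes were -10.1, -11.5, -7.59 and -5.98 points from the end inward. In those tiles the level within 5 Mb of an end and that beyond 20 Mb differed by -0.03, 0.27 and -0.22 points at passages 11, 13 and 17, and by -4.72 and -5.65 points at passages 27 and 28. The 2 changes thus differed by -5.19 points, and over all tiles by -6.33 points (exact permutation p = 0.1 each). At 80% or more with 3 to 9 listed CpGs, the changes were -9.90, -11.4, -7.92 and -6.84 points. Tiles near the ends had more reads, with medians of 312.5 and 270 reads over the 5 libraries in the first 2 classes of tiles at 80% or more and 223 in the last, and the part of depth in the share of calls was not tested. Among chromosomes, the change was largest on chromosome 21 (-10.4 points), 22 (-9.88) and 16 (-8.80) and smallest on chromosome 3 (-4.87). Tiles within 5 Mb of an end make up 57.4% of the tiles of chromosome 21 and 10.7% of those of chromosome 3.

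**Figure D4:**
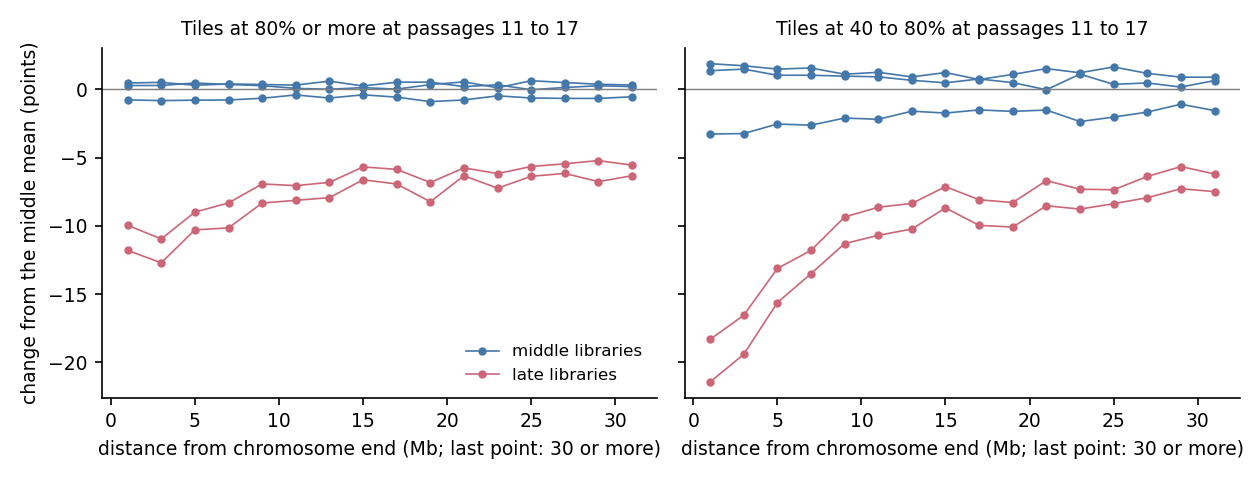
Change from the mean of the middle libraries (percentage points) against distance from the chromosome end in steps of 2 Mb, for tiles at 80% or more (left) and at 40 to 80% (right) at passages 11 to 17; each line is 1 library. The late mean was -10.9 points in the first step and -5.93 points at 30 Mb or more in the left panel, and -19.9 and -6.84 points in the right panel, while the middle lines stay near 0.

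Tiles called lower were often neighbours. If a tested tile was called lower, the next tested tile within 5 kb was also called lower in 47.1% of pairs, against 22.6% if it was not. The longest run of tiles called lower had 19 tiles over 23 kb, at chr9:139387001-139410000, between the placed starts of SEC16A, a protein of transport vesicle formation, and NOTCH1, a receptor of cell fate decisions. Its mean level was 59.6%, 59.4% and 53.0% at the middle passages and 19.7% and 12.2% at the late ones. The next 4 runs had 18, 15, 15 and 14 tiles. They lay between NKD2 and SLC12A7 on chromosome 5, between NFATC1 and CTDP1-DT on chromosome 18, between PPDPF and GMEB2 on chromosome 20 and between RPA1 and DPH1 on chromosome 17. The means of these 4 runs were 55.2% to 61.4% in the middle group and 20.9% to 24.9% in the late group.

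The spread between the CpGs of a tile was taken as the SD of their levels, in tiles with at least 5 kept CpGs. Over all 10869 such tiles called lower, its median was 23.5, 24.0 and 23.7 points at the middle passages and 21.7 and 19.7 points at the late ones. The 5725 of them that ended between 20% and 80%, a set chosen by its late level, had 21.1, 21.4 and 22.9 points and then 28.4 and 27.2 points. In 29794 tested tiles that were not called, the median was between 17.3 and 17.7 points in every library. In the 9865 of these that lay at 20 to 80% in both groups, it was 26.2, 26.4 and 26.7 points, then 26.8 and 26.3. The SD depends on the level and on the reads per CpG, which were not held equal, so these values are a description with no test.

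Gains were rare but not evenly spread. Of 5401 bins of 500 kb with a tested tile, 3 had 5 or more tiles called higher, and these formed a stretch on chromosome 1 and another on chromosome 16. The stretches were chosen for their gains, so the counts below describe them and are not a test. At chr1:2931001-3330000, 70 of 150 tested tiles (46.7%) were called higher and 5 lower, and both late libraries lay above all middle ones in 91. The tiles called higher, picked for their gain, averaged 26.2%, 21.5% and 21.6% at the middle passages and 52.3% and 54.2% at the late ones. No start could be placed inside it, which does not show that no gene starts there. The nearest on the right is ARHGEF16, 41.2 kb away, and the nearest on the left is MMEL1-AS1, 371 kb away. Some dense tiles inside the stretch were called higher. Those at chr1:2984001-2985000 and chr1:2985001-2986000, with 39 and 63 listed CpGs, went from 1.27% and 1.76% to 32.5% and 17.0%. The dense tile at chr1:2986001-2987000, with 93 listed CpGs, went from 0% to 4.02% and was not called. Between MMEL1 and ARHGEF16, RefSeq lists the named protein-coding genes TTC34, ACTRT2 and PRDM16, the last a zinc finger regulator of brown fat cells. No start of these genes was placed between MMEL1-AS1 and ARHGEF16. Whether the stretch or its dense tiles hold such a start or the body of such a gene was therefore not determined. At chr16:867001-1112000, 19 of 114 tested tiles (16.7%) were called higher and 14 lower. Its gains averaged 27.8%, 24.1% and 23.9%, then 45.0% and 48.1%. LMF1, a maturation factor for lipases, has 2 placed starts inside it, and SOX8, a transcription factor of the neural crest, is between LMF1 and SSTR5 in RefSeq order.

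The largest gain of all lies in the chromosome 1 stretch, at chr1:2997001-2998000, where 6 CpGs went from 13.8%, 2.13% and 0% to 87.3% and 87.7% with 47 to 79 reads per library (adjusted p = 5.59e-07). Of the 10 largest gains, 6 lie in that stretch, and the one at chr16:942001-943000 lies in the other, with 20%, 3.13% and 21.6% against 71.4% and 77.8% (adjusted p = 0.000387). The longest 5 runs of tiles called higher all lie in the chromosome 1 stretch, and the first, of 6 tiles over 11 kb, went from 23.1%, 18.3% and 15.98% to 64.3% and 69.7%. The other 3 of the 10 largest gains are at chr4:9155001-9156000, chr4:17643001-17644000 and chr12:13080001-13081000. The first of these had middle levels as far apart as 56.8%, 14.8% and 4.17%. Without passage 28 both gains on chromosome 4 missed the threshold, with adjusted p-values of 0.0515 and 0.124.

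The stretches were drawn around their gains, so an excess of gains over tiles of like level elsewhere is built in and is only described. Of their 65 tiles at 10 to 40% in the middle mean, 38 were called higher and 1 lower, and their mean went from 24.9% to 45.1%. Outside them, 11769 tested tiles of that range had 62 gains and 5039 falls, and the mean went from 24.7% to 13.0%. The 2 stretches were not alike. Of tested tiles under 40%, 56 of 78 were called higher on chromosome 1 and 15 of 45 on chromosome 16. The mean changes of all tiles under 40% were 22.2 and 8.24 points. Over all its tiles, the chromosome 16 stretch went from 46.5% to 47.5%. Highly methylated tiles inside the stretches were also lower at late passages. The 26 tiles at 80% or more on chromosome 1 went from 85.8% ± 1.47 (SD, n = 3) to 79.7%, and the 25 on chromosome 16 from 88.1% ± 0.844 (SD, n = 3) to 79.96%. Outside both stretches 430 of 93659 tested tiles (0.459%) were called higher, with an adjusted p under 0.001 in 24 of them, against 35 on chromosome 1 and 5 on chromosome 16.

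**Figure D5:**
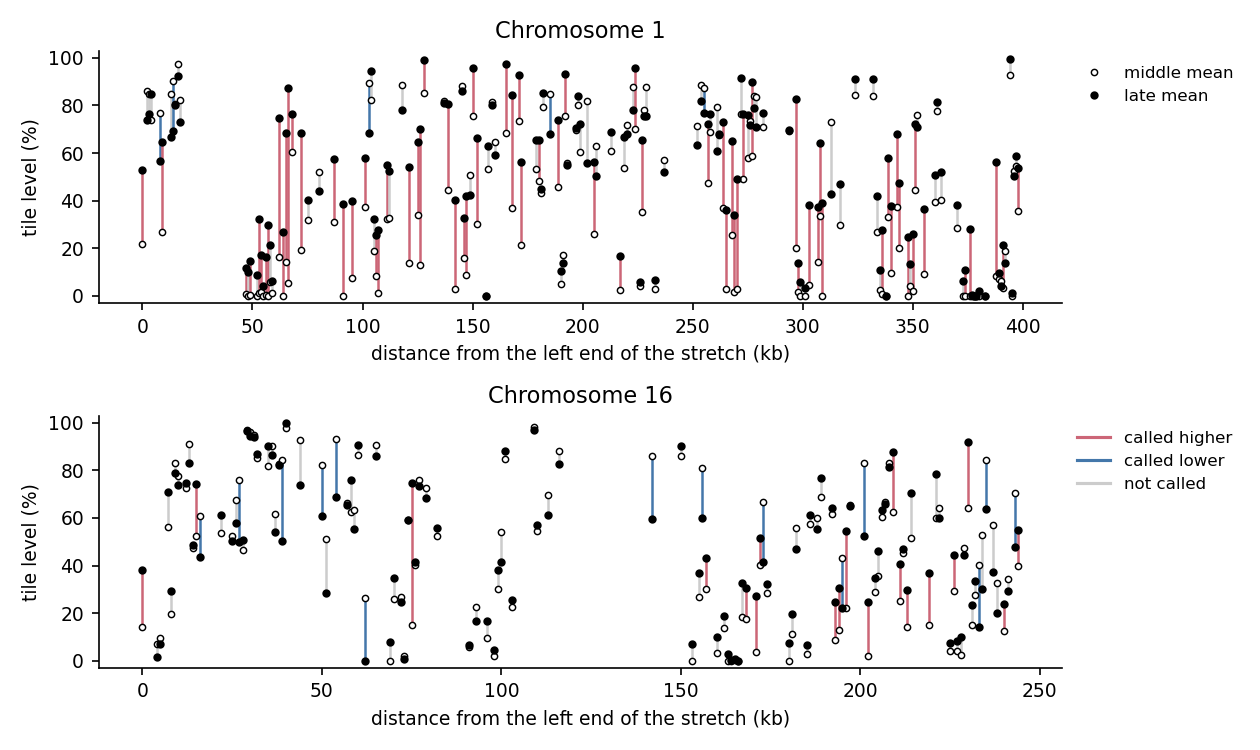
Level of each tile (percent) against distance from the left end of the stretch (kb) on chromosomes 1 and 16; open circles are middle means, filled circles late means, and the joining line is coloured where the tile was called. On chromosome 1, 70 of 150 tested tiles were called higher and 5 lower, and on chromosome 16, 19 of 114 and 14.

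Gene starts were found in the files' coordinates by matching the spacing of listed CpGs to RefSeq promoter sequences, which placed 11269 autosomal starts. Tiles within 0.5 kb of a placed start were at 3.1997% ± 0.0625 (SD, n = 3) in the middle group and 2.64% in the late group. The change was -2.11 points at 0.5 to 1.5 kb, -7.39 at 1.5 to 5 kb, -8.87 at 5 to 20 kb, -8.34 at 20 to 100 kb and -6.51 beyond 100 kb. The share of tested tiles called lower was 9.21% within 0.5 kb, 26.4% at 5 to 20 kb and 16.5% beyond 100 kb. A tile under 10% cannot fall by 10 points, so the low level near a start limits that share. Among tiles at 80% or more, changes within 20 kb were between -7.38 and -8.96 points, and that beyond 100 kb was -6.50 points. The share of those called lower was 21.4% within 0.5 kb, where 98 were tested, then 12.5%, 16.7%, 19.2%, 16.8% and 11.5% outward.

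Over the 250 bases before the start, 5828 promoters had at least 5 kept CpGs, and 5722 (98.2%) of them were under 20% at middle passages. The median change over all 5828 was 0 points. In 52 promoters the group means were at least 10 points lower at late passages, and in 10 at least 10 points higher. Of the 106 promoters at 20% or more, 23 ended under 20%, and the median change was -6.78 points. Only 3 promoters went from under 20% to 20% or more.

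Germ cell genes, many of which carry methylated promoters in somatic and pluripotent cells, had called falls in 6 of 10 tested tiles within 1 kb of their placed starts (7 of 21 genes placed), and no gain, against 21.0% and 0.553% of all tested tiles. With so few tiles, the absence of a gain says nothing about these genes. MOV10L1, a helicase of the piRNA pathway that silences transposons in the germ line, was at 69.5%, 86.3% and 73.5% at the middle passages and 19.5% and 19.1% at the late ones (chr22:50528001-50529000, 24 kept CpGs, adjusted p = 1.44e-08). PIWIL1, a protein that binds piRNAs, fell in 3 tiles, by 11.2, 24.4 and 29.0 points, and the first of these started at only 11.2%. TDRD12, another piRNA factor, fell from 95.7% to 62.1% in 1 tile of 3 CpGs, and TEX101, a sperm surface protein, from 95.6% to 81.3%. Another TDRD12 tile, of 8 kept CpGs, went from 71.8% to 60.6% and was not called (adjusted p = 0.258). The tiles of TDRD6 and TDRD9, both tudor proteins of the same pathway, were at 85.9% or more in every library and were not called. The first PIWIL1 tile was not called without passage 27 or without passage 28 (adjusted p of 0.121 and 0.0916). Over the alternatives run, the TEX101 call was lost in 3, those of TDRD12 and the second PIWIL1 tile in 2 each, and that of the third PIWIL1 tile in 1. The median change over the 10 tested tiles was -12.8 points, against -6.21 over all tested tiles. These 10 tiles were dense, with a mean of 37.3 listed CpGs, and had a middle mean of 76.4%. In all tested tiles at 60 to 80%, falls were called in 50.8% at 20 to 34 listed CpGs and 52.2% at 35 or more. At 80% or more the shares were 17.3% and 9.28%. With few tiles at unlike levels, and 3 of the falls at PIWIL1, an excess over like tiles was not tested.

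Imprinted genes, which are methylated on the copy from 1 parent, had called falls in 6 of 13 tested tiles (10 of 33 genes placed). The median change was -14.7 points. GNAS, which encodes a G protein subunit from several imprinted starts, fell in 3 tiles. The tile at chr20:57415001-57416000 had 40.8%, 33.5% and 24.7% over 18 CpGs at the middle passages and 2.08% and 0.656% at the late ones (adjusted p = 6.62e-07). The tile beside it, at chr20:57414001-57415000, had 35.6%, 49.2% and 66.7% and then 0% and 1.02%. GRB10, an adaptor that restrains growth signals, fell from 40.2% ± 8.46 (SD, n = 3) to 16.1%, and PLAGL1, a zinc finger protein, from 47.3% ± 10.4 (SD, n = 3) to 32.6%. IGF2R, which clears the growth factor IGF2, fell from 81.5% to 51.4% in a tile of 3 CpGs. MKRN3 was at 89.5%, 91.8% and 90.1% and then at 83.2% and 89.8%, and was not called. Tiles at 20 to 60% are where falls were most frequent in the whole table, and 6 of 13 is read against those shares of 46.0% and 37.9% as well as against 21.0%. The IGF2R call was lost without any 1 of passages 11, 13, 27 and 28, with adjusted p-values of 0.0506 to 0.179. The PLAGL1 call was lost without passage 13, 27 or 28 (adjusted p of 0.107, 0.0674 and 0.121), and the third GNAS tile without passage 28 (adjusted p = 0.232). With 10 reads per CpG the GRB10 tile changed by -6.60 points and was not called. Counted over the alternatives run, the PLAGL1 and IGF2R calls were lost in 7 each, that of the third GNAS tile in 4 and that of GRB10 in 3. The calls of the other GNAS tiles were lost in 1 each.

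The other lists had few tested tiles at their starts, too few to set their shares apart from the 21.0% over all tested tiles. Of 2 tested tiles of pluripotency genes, both at ZFP42, none was called, with middle means of 94.2% and 89.6% and late means of 95.9% and 84.4%. In the genes of the methylation machinery, 1 of 4 tested tiles was called lower, a tile of 3 CpGs beside the start of TET3, a dioxygenase that oxidises methylcytosine. The DNMT3A tile, at the start of one of the disrupted genes, was at 0.70% in the middle group and 1.2% in the late group and was not called. RRBS at a start does not show whether a coding sequence is disrupted, so this does not check the genotype. Developmental regulators had 52 tiles with a mean of 0.236% at middle and 0.309% at late passages, of which 3 could be tested and none was called. Housekeeping genes, kept as a background, had 1 of 4 tested tiles called lower, at RPL13A, which encodes a ribosomal protein. That call was lost on leaving out any library but passage 27, with adjusted p-values of 0.0579 to 0.512, and the TET3 call was lost without passage 28 (adjusted p = 0.0575).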

How the data were processed

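RRBS libraries of 5 passages were used. Each file deposited by the authors lists CpGs by position; the build is hg19, as the submitters' processing notes name it. Aligner, methylation caller and handling of duplicates are not given in the sources used. The fourth column gives methylated over total reads, deposited as 2 read counts joined in 1 field. The deposited score of the fifth column equals 1000 times the methylated share, rounded, on each line; it did not enter any result.

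Methylated and total reads were summed over tiles of 1000 bases and fitted per tile by quasi-binomial logistic regression on group. The dispersion, on 3 residual degrees of freedom, was moderated by squeezeVar of limma 3.58.1 in R 4.3.3 and held at 1 or more. P-values are from two-sided F tests with Benjamini-Hochberg adjustment over all tested tiles, and the fit was tested on simulated data. Library-wide values were compared by exact permutation, and means over tiles give each tile the same weight. Counting intervals take reads as independent molecules, which RRBS reads without molecular identifiers are not. A read that covers several CpGs of a tile also enters once per CpG, which makes these intervals and limits too narrow.

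No genome or annotation of hg19 was used here, although the design named gene lists only for that case. Starts were instead placed after the files were seen. Each of the 21319 RefSeq promoter sequences (GRCh38.p14, 250 bases before and 50 after a start) with at least 8 CpGs was laid over the files where every listed CpG in its window matched a CpG of the sequence. A match had to hold at least 8 listed CpGs and be the only one in the genome. Of 11651 such matches, 11611 (99.7%) lay on the RefSeq chromosome, and 99.8% of adjacent pairs were in RefSeq order. After removal of the rest, 11590 were kept. Starts with few listed CpGs are missing, so the nearest placed start is not always the nearest gene.

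Named tiles were the 10 largest falls and 10 largest gains among called tiles whose late libraries lay outside the middle range, 5 tiles with the highest late level, and the longest 5 runs in each direction. The gain stretches, the printed promoters and the genes within lists were named after their values were seen. Members and lists were chosen with earlier results of these data known. Alternatives were the coverage minimum and maximum, thinned reads, tile size, CpGs per tile, other tests and thresholds, and omission of each library.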

Additional observations from a re-analysis of the deposited data

How the results depend on the processing

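No paired analysis was possible because the replicate numbers are given by accession order only, with a single library per passage. Every library-wide, class and position difference kept its sign under the alternatives run. With 10 reads per CpG, 5765 of 16285 tested tiles (35.4%) were called lower and 143 higher, the share of CpGs at 20% or less changed by 6.66 points, and the changes at 40 to 60%, 60 to 80% and 80 to 90% were -22.3, -18.4 and -12.8 points. The density differences were then 8.03 points over all tiles, 0.718 at 80% or more and -8.42 at 40 to 80%, and the position difference at 80% or more was -5.67. Chromosome X gave -8.68 and 4.67 points for CpGs at 80% or more and 20% or less. With 5 CpGs per tile 10717 tiles were called lower (26.2%) and 170 higher. Limma on logit levels (pseudocount of 0.5 reads of each state) called 9023 lower and 196 higher, and limma on plain CpG means 3629 and 71, both among 129138 tiles. Gains numbered 246 with thinned reads, 307 at a change of 20 points or more and, chosen after seeing the data, 191 at an adjusted p under 0.01. Without 1 library, falls numbered 11705 to 19167 and gains 233 to 549, where a lone late library is assumed to vary as the other group does. The changes were then -9.47 to -7.81 points at 80 to 90% and -7.66 to -5.93 at 90 to 100%, and at 80% or more the density difference was 3.58 to 4.40 and the position difference -5.65 to -4.73. Classes from passage 11 gave -7.33 and -5.27 points at 80 to 90% and 90 to 100%. The cause of these shifts was not tested. Of the 10 largest falls, 9 were called in every alternative where they could be tested, and the chromosome 8 tile was missed by limma on plain means alone (adjusted p = 0.0582, against at most 0.0199 in its other alternatives). Tested tiles had a median of 253 reads over the 5 libraries, and the share called lower was 7.02% in those with 75 to 180 reads and 35.4% in those with 392 or more.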
